A study of Mus musculus with 15 samples.

Results

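The genes of antigen presentation by the major histocompatibility complex (MHC) were followed through mouse liver with and without Stab1, the gene of the scavenger receptor Clever-1. The 10 genes were chosen by name, as 10 of the 19464 rows of the expression table, and each was present on 1 row. They were the class II chains H2-Aa, H2-Ab1 and H2-Eb1, the invariant chain Cd74, the class II transactivator Ciita, the peptide editor genes H2-DMa and H2-DMb1, the class I heavy chains H2-K1 and H2-D1, and the class I light chain B2m. Total RNA of liver was sequenced at 2 ages, in 2-week-old mice (4 libraries of each genotype) and in late gestation at stage E17.5 (4 wildtype and 3 Stab1-/- libraries). All 4 groups carried the same mixed background label, C57BL/6N and 129SvJ. Nothing in the sources used here says whether wildtype and Stab1-/- samples were littermates or which days they were prepared, so an effect of age cannot be told apart from an unrecorded batch, and the p-values measure the spread between these libraries.

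MHC class I molecules are carried by nearly all cells and show peptides made inside the cell to CD8+ T cells. A heavy chain such as H2-K1 or H2-D1 pairs with beta-2-microglobulin, the B2m product, after the TAP transporter and the loading complex have supplied a peptide. Class II molecules show peptides from ingested material to CD4+ T cells and are made mainly by B cells, dendritic cells and macrophages, where the invariant chain guards the groove until H2-DM exchanges its remnant for a peptide. Ciita switches on the class II genes, and its relative Nlrc5 acts on the class I genes. Both work through factors on a shared promoter module that contains an X box and a Y box, and interferon-gamma raises both. In liver, class II marks Kupffer cells, dendritic cells and B cells, while class I is also made by hepatocytes and endothelium. In RNA from whole tissue, fewer cells of a type and less RNA per cell cannot be told apart.

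The promoter sequences of 7 of the 10 genes were found in RefSeq (GRCm38.p6). H2-Ab1, Cd74 and Ciita are named only. The sequences below are those of the 5 genes whose window held a match to a Y box core, described in the next paragraph. Each gives the 150 bases before the annotated start, 5′ to 3′ on the strand of the gene, with matched motif letters in capitals.
H2-Aa (chr17:34287824-34287973, minus strand): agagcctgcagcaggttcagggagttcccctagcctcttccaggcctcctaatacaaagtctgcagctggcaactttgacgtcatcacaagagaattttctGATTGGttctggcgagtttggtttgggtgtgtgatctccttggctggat
H2-Eb1 (chr17:34305717-34305866, plus strand): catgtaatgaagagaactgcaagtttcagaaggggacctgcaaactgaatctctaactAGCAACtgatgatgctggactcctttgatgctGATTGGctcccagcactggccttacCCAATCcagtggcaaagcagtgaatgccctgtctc
H2-DMb1 (chr17:34153041-34153190, plus strand): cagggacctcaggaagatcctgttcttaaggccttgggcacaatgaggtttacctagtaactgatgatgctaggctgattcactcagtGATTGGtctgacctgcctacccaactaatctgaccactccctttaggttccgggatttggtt
H2-D1 (chr17:35262944-35263093, plus strand): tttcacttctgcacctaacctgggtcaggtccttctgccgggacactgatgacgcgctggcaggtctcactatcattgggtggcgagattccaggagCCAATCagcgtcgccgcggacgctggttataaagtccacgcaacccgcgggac
B2m (chr2:122147537-122147686, plus strand): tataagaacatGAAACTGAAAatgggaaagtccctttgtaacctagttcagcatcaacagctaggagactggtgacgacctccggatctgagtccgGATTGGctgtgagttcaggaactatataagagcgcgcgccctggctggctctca

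Motifs were searched on both strands in the 250 bases before each start. The Y box core GATTGG, which reads CCAATC on the other strand, was present in 5 of the 7 windows, those of H2-Aa, H2-Eb1, H2-DMb1, H2-D1 and B2m, and 14.6% of the 32851 windows in the table held it. On the gene's strand it lay 49 to 44 bases before the start of H2-Aa, 60 to 55 before H2-Eb1, 62 to 57 before H2-DMb1 and 54 to 49 before B2m. The X box core AGCAAC was found only in H2-Eb1, at 92 to 87 bases before the start, and 12.2% of all windows held it. An interferon element, written as TTTC and TTTC spaced by 2 bases of any kind, was searched on either strand and found in B2m as GAAACTGAAA, 139 to 130 bases before the start, and in 2.98% of all windows. None of these matches overlapped another. The H2-D1 match lay on the other strand, 53 to 48 bases before the start. H2-K1 and H2-DMa had none of these exact letters in the window, and variants of the letters were not searched. The end of the H2-K1 window resembles the bases shortly before the H2-D1 match. The H2-K1 search thus stopped short of the position of that match, since bases after the start were not searched. The H2-K1 and H2-D1 windows could be aligned over 177 columns, of which 161 (91.0%) held the same base.

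Between 9659 and 10964 reads, in units of 1000, were counted on genes in each library. Levels are given as RPKM, the reads counted per kilobase of gene and scaled to the library total, with ± for the SD over libraries. Stab1 was 1.09 ± 0.310 RPKM in 2-week-old Stab1-/- liver against 9.29 ± 1.54 in wildtype, and 4.37 ± 0.817 against 17.2 ± 3.17 at E17.5, without overlap between genotypes at either age. The defining genes of hepatocytes were detected in all 15 libraries, with summed levels from 47816 to 92252 RPKM. Sex was not labelled. The 8 libraries from 2-week-old mice had 0 to 2 reads over 4 Y-linked genes and 8554 to 19611 reads of Xist, whereas the 7 E17.5 libraries had 13 to 2448 Y-linked reads, and 6 of them carried more than 100 reads of both kinds. One library stood apart: Stab1-/- E17.5 replicate 1 had a summed level of 583.5 RPKM over 10 intestinal epithelium genes, a list written after the values were seen, against 138 to 196 RPKM in the other E17.5 libraries.

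The class I genes were among the most abundant members, and the order of levels was nearly the same in all 4 groups. In 2-week-old wildtype liver the mean was 1324 ± 91.1 RPKM for B2m, 332 ± 19.6 for H2-K1 and 158 ± 10.2 for H2-D1. The class II genes were far lower, with 26.4 ± 3.28 RPKM for Cd74, 13.2 ± 2.70 for H2-Aa, 10.6 ± 0.565 for H2-Ab1 and 7.35 ± 1.58 for H2-Eb1. The peptide editor genes followed with 3.29 ± 1.15 RPKM for H2-DMa and 1.55 ± 0.708 for H2-DMb1, and Ciita was last with 0.246 ± 0.0270 RPKM. Among neighbours in this order at 2 weeks, H2-Aa and H2-Ab1 were the only pair whose libraries overlapped, in either genotype. At E17.5 neighbours in the order among Cd74, H2-Aa and H2-Ab1 overlapped in both genotypes, and so did H2-Eb1 and H2-DMa. H2-DMa and H2-DMb1 overlapped as well in Stab1-/- samples at E17.5.

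**Figure D1:**
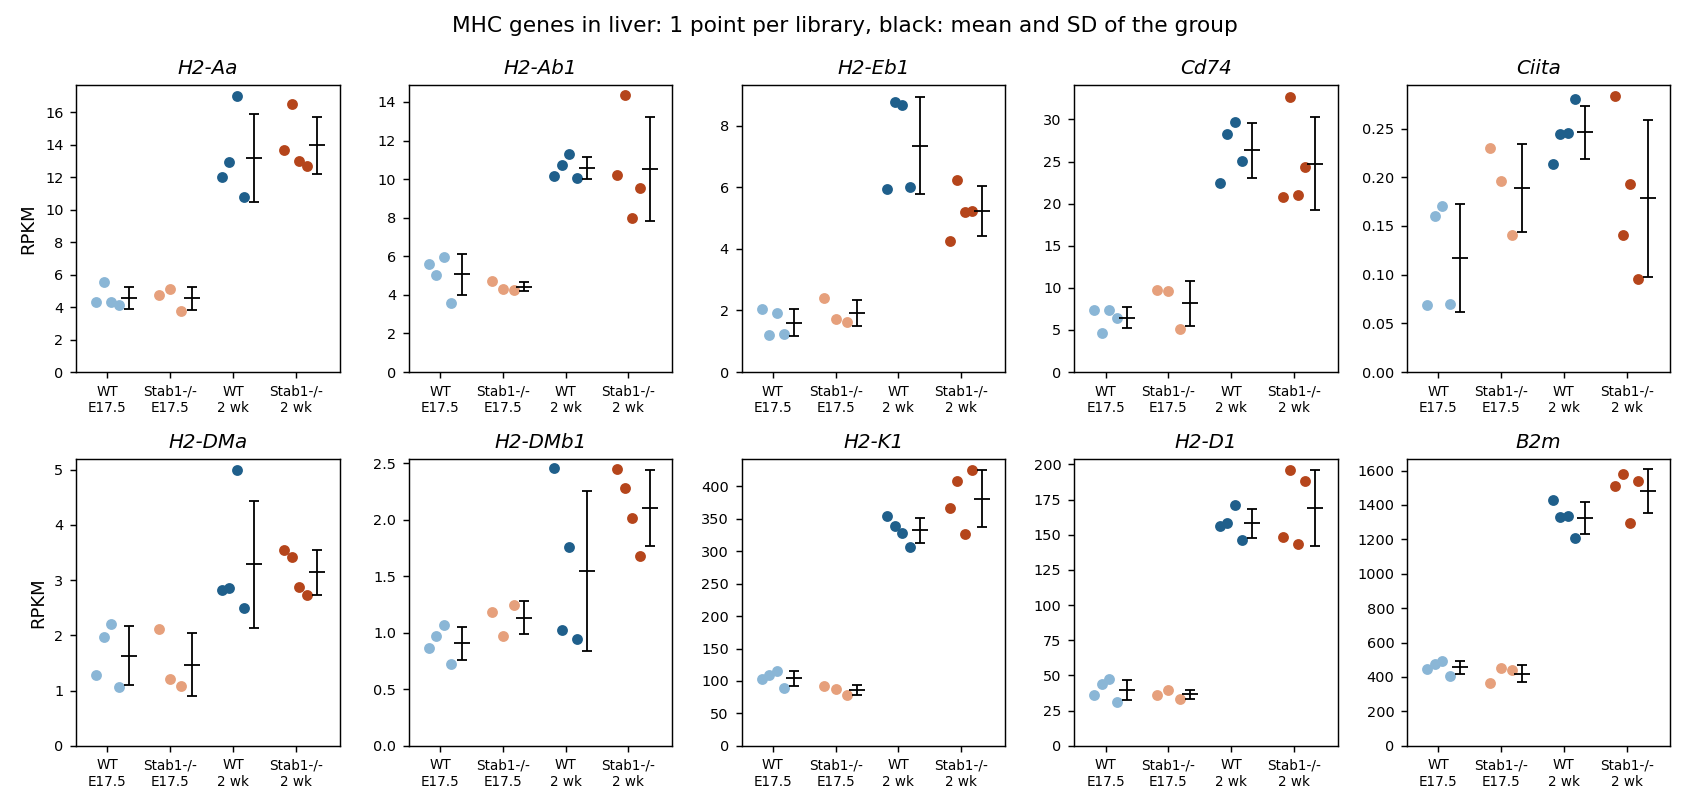
Level of each of the 10 MHC genes in RPKM on the y axis, with 1 point per library and a panel per gene, for wildtype (WT) and Stab1-/- liver at E17.5 and 2 weeks. Black marks give the group mean with its SD (n = 4, 3, 4 and 4 from left to right). The 2-week points of a genotype lie above its E17.5 points except for H2-DMb1 in wildtype and Ciita in Stab1-/- liver, and the genotypes overlap at each age in all 10 panels.

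To see whether loss of Stab1 altered antigen presentation genes, genotypes were compared within each age. At 2 weeks none of the 10 genes passed the test (edgeR quasi-likelihood test, Benjamini-Hochberg adjusted p under 0.05), where 2.67% of all 12716 genes tested did, 0.936% higher and 1.74% lower in Stab1-/- liver. H2-Eb1 was the only one with an unadjusted p under 0.05, which 23.4% of all genes tested had, and DESeq2 also called 0 of the 10. The median log2 fold change of the 10 genes was -0.05, beside -0.01 over all genes tested. No member had groups without overlap, against 14.9% of the genes tested.

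H2-Eb1, the beta chain of the I-E class II molecule, was nearest to the threshold. Its level was 4.25, 6.23, 5.21 and 5.23 RPKM in the 4 Stab1-/- libraries and 5.95, 8.76, 8.69 and 6.01 RPKM in the 4 wildtype libraries, from 70 to 154 reads. Of the Stab1-/- values, 3 lay below every wildtype value, and 1 lay within the wildtype range. The log2 fold change was -0.58 ± 0.18 (SE), with a 95% interval from -0.97 to -0.18 and an adjusted p of 0.1003 by edgeR. With single libraries left out the direction was kept and the adjusted p ranged from 0.0728 to 0.262.

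The other class II genes had smaller differences. H2-Aa, the alpha chain of I-A, was at 13.7, 16.5, 12.99 and 12.7 RPKM in 2-week-old Stab1-/- liver and at 11.99, 12.9, 17.02 and 10.8 RPKM in wildtype liver. Its partner H2-Ab1 was at 10.2, 14.3, 7.98 and 9.55 RPKM in Stab1-/- and at 10.2, 10.7, 11.3 and 10.1 RPKM in wildtype liver. For both chains the ranges of the genotypes overlapped. The edgeR log2 fold changes were -0.01 ± 0.16 for H2-Aa (adjusted p = 0.977) and -0.09 ± 0.17 for H2-Ab1 (adjusted p = 0.769).

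Cd74, which encodes the invariant chain, measured 20.8, 32.7, 21.1 and 24.4 RPKM in Stab1-/- and 22.4, 28.3, 29.7 and 25.0 RPKM in wildtype liver at 2 weeks. Its interval for the log2 fold change ran from -0.53 to 0.17 (edgeR adjusted p = 0.530). The transactivator Ciita was at 0.284, 0.141, 0.193 and 0.0958 RPKM in Stab1-/- liver and at 0.214, 0.245, 0.246 and 0.280 RPKM in wildtype liver. These levels rest on 5 to 16 reads per library, and Stab1-/- replicate 1 alone was above all wildtype values while the other 3 were below them. The Ciita log2 fold change of -0.56 ± 0.31 had an edgeR adjusted p of 0.303. H2-DMa and H2-DMb1, the chains of the peptide editor, had log2 fold changes of -0.16 ± 0.23 and 0.35 ± 0.29 (edgeR adjusted p = 0.700 and 0.485), from 44 to 88 and 13 to 33 reads per library.

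Class I levels in 2-week-old liver were close between genotypes. H2-K1 was at 366, 408, 326 and 425 RPKM in Stab1-/- and at 354, 338, 329 and 307 RPKM in wildtype liver. H2-D1 was at 149, 196, 143 and 188 RPKM in Stab1-/- and 156, 159, 171 and 146 RPKM in wildtype liver. B2m was at 1509.7, 1578, 1295 and 1539 RPKM in Stab1-/- and 1427, 1329, 1336 and 1205 RPKM in wildtype liver. In all 3 genes the Stab1-/- libraries spread more widely than the wildtype libraries and overlapped with them. The 95% intervals of the fold, Stab1-/- over wildtype, were 0.909 to 1.29 for H2-K1, 0.825 to 1.23 for H2-D1 and 0.894 to 1.24 for B2m, with edgeR adjusted p-values of 0.581, 0.972 and 0.717.

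The make-up of class I reads differed more than their sum. Over 26 class I heavy chain rows, 1979 ± 160.2 RPM (reads scaled to the library total, without regard to length) were counted in 2-week-old Stab1-/- and 1992 ± 58.0 RPM in wildtype liver. H2-K1 took 30.9 to 33.4% of these reads in Stab1-/- and 26.6 to 28.6% in wildtype libraries. H2-Q10, a secreted class I molecule of hepatocytes, took 28.2 to 31.2% in Stab1-/- and 34.7 to 40.4% in wildtype libraries. Neither share overlapped between genotypes, and these shares were looked at after the values were seen and have no test. H2-Q10 itself was at 396.5 ± 23.4 RPKM in Stab1-/- and 490.6 ± 26.2 RPKM in wildtype liver, also without overlap. Its log2 fold change of -0.40 did not pass edgeR (adjusted p = 0.0602) and did pass DESeq2 (adjusted p = 0.0047). The summed level of 6 hepatocyte markers was 55611 to 71409 RPKM in 2-week-old Stab1-/- and 71931 to 92252 RPKM in wildtype liver, also without overlap, and its part in the H2-Q10 difference was not tested.

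The wider pathway was likewise uncalled at 2 weeks. By edgeR, 0 of 7 class II molecules tested, 0 of 14 genes of class II transcription and processing, 0 of 20 class I heavy chain and B2m genes, 0 of 14 genes of class I transcription and peptide loading, and 0 of 10 genes of interferon-gamma signalling passed. An unadjusted p under 0.05 was found for 1, 1, 4, 1 and 3 of them, against 23.4% of all genes tested, and DESeq2 called 1 gene over the 5 lists, H2-Q10. The list medians lay between -0.16 and 0.09 on the log2 scale. Ctsl, an endosomal protease and the most abundant gene of its list, was at 366.4 RPKM on average in both genotypes. The chaperone Calr and the disulfide isomerase Pdia3, which help to load class I, were at 328.4 and 193 RPKM in Stab1-/- and 326.9 and 172 RPKM in wildtype liver. Ifngr1, a chain of the interferon-gamma receptor, was at 30.2 and 32.1 RPKM.

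Markers of cells that carry class II were measured beside these genes. The summed level of 9 B cell markers was 9.39 to 13.1 RPKM in 2-week-old Stab1-/- liver and 10.04 to 15.6 RPKM in wildtype liver, and 0 of 7 tested passed. The summed level of 11 dendritic cell markers was 4.97 to 5.97 RPKM in Stab1-/- and 6.50 to 7.501 RPKM in wildtype liver, without overlap, although 0 of the 3 tested passed edgeR. For 11 Kupffer cell and macrophage markers the range was 555 to 720 RPKM in Stab1-/- and 419 to 593 RPKM in wildtype liver, with 0 of 11 called. The 9 monocyte and neutrophil markers summed to 190.1 to 425 RPKM in Stab1-/- and 32.6 to 148 RPKM in wildtype liver. Of these, Cx3cr1, a receptor of patrolling monocytes, was higher in Stab1-/- liver (log2 fold change 1.84 ± 0.29, edgeR adjusted p = 0.00787). No defining marker of these 4 lists was at 0 throughout a 2-week group. The part of these cells in the H2-Eb1 difference was not tested.

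At E17.5 the genotypes could be compared for 9 of the 10 genes, since Ciita, with 4 to 13 reads per library, did not pass the filter on low counts. None of the 9 passed, where 0.366% of 13388 genes did, 0.194% higher and 0.172% lower, and none had an unadjusted p under 0.05. DESeq2 also called 0 of them. No member had groups without overlap, against 12.2% of the genes tested. The median log2 fold change of the 9 was -0.05, beside 0.00 over all genes tested.

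Fetal class II levels were low in both genotypes. H2-Aa was at 4.73, 5.11 and 3.74 RPKM in Stab1-/- and 4.28, 5.56, 4.29 and 4.14 RPKM in wildtype samples at E17.5. H2-Eb1 was at 2.39, 1.72 and 1.64 RPKM in Stab1-/- and 2.06, 1.20, 1.91 and 1.23 RPKM in wildtype samples. Cd74 was at 9.76, 9.62 and 5.08 RPKM in Stab1-/- and 7.33, 4.68, 7.39 and 6.40 RPKM in wildtype samples. Stab1-/- replicate 1, the library with the intestinal genes, was the highest for H2-Eb1 and Cd74, and the genotypes overlapped for all 3 genes. The log2 fold changes of H2-Eb1 and Cd74 were 0.31 ± 0.27 and 0.40 ± 0.24 (edgeR adjusted p = 0.647 and 0.512), and 0.14 and 0.27 without that library.

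H2-K1 had the smallest unadjusted p of the 3 class I members at E17.5. It was at 92.8, 87.3 and 78.1 RPKM in Stab1-/- and at 103, 108, 116 and 89.1 RPKM in wildtype samples, so that Stab1-/- replicate 1 lay above the lowest wildtype library. Its log2 fold change was -0.22 ± 0.11 (edgeR adjusted p = 0.444). B2m was at 363, 455 and 440.4 RPKM in Stab1-/- and 449, 476, 490.5 and 407 RPKM in wildtype samples, and the interval of its fold was 0.801 to 1.15. H2-D1 ranged from 33.6 to 39.9 RPKM in Stab1-/- and from 31.3 to 47.4 RPKM in wildtype samples. Over the 5 pathway lists, Lgmn alone was called. This gene encodes legumain, a protease that acts on antigens and on the invariant chain, and it rose to 95.8 ± 10.7 RPKM in Stab1-/- from 62.6 ± 1.58 RPKM in wildtype samples (log2 fold change 0.67 ± 0.08, edgeR adjusted p = 0.00848). Without wildtype E17.5 replicate 1 its log2 fold change was 0.66 and its edgeR adjusted p 0.0503. At this age the monocyte and neutrophil markers summed to 3539.7 to 3861 RPKM in Stab1-/- and 5030.2 to 8201 RPKM in wildtype samples, and the Kupffer cell markers to 544 to 633 and 503 to 617 RPKM. Their part in the Lgmn difference was not tested. An unadjusted p under 0.05 was found for 0 of 7 class II molecules, 2 of 13 class II transcription and processing genes, 1 of 19 class I genes, 0 of 14 class I loading genes and 0 of 10 interferon-gamma genes, against 12.9% of all genes tested.

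The library with intestinal reads carried another class I gene that the rest lacked. H2-T3, which encodes the thymus leukemia antigen, known from intestinal epithelium, had 68 reads in Stab1-/- E17.5 replicate 1 and 0 to 3 reads in the other E17.5 libraries. H2-Q2 had 49 reads there and 9 to 19 reads in the others. Without this library, none of the 9 members tested was called between genotypes at E17.5, as with it.

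In wildtype liver all 10 genes were higher at 2 weeks than at E17.5, where 34.9% of the 13369 genes tested were called higher, 37.0% lower and 71.9% in either direction (edgeR). In Stab1-/- liver 9 of the 10 were higher, where 35.7% of 13433 genes were called higher, 36.8% lower and 72.5% in either direction. The median log2 fold change of the 10 genes was 1.90 in wildtype and 1.75 in Stab1-/- liver, beside -0.01 over all genes tested in each. With scaling by library totals, which put the median log2 fold change of all genes at -0.38 in wildtype and -0.24 in Stab1-/- liver, 9 of the 10 were called higher in each genotype. In 9 members every 2-week library lay above every E17.5 library in wildtype liver, and in 9 in Stab1-/- liver, against 21.1 and 28.0% of genes tested. In either direction, 69.1 and 72.0% of genes tested had no overlap.

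**Figure D2:**
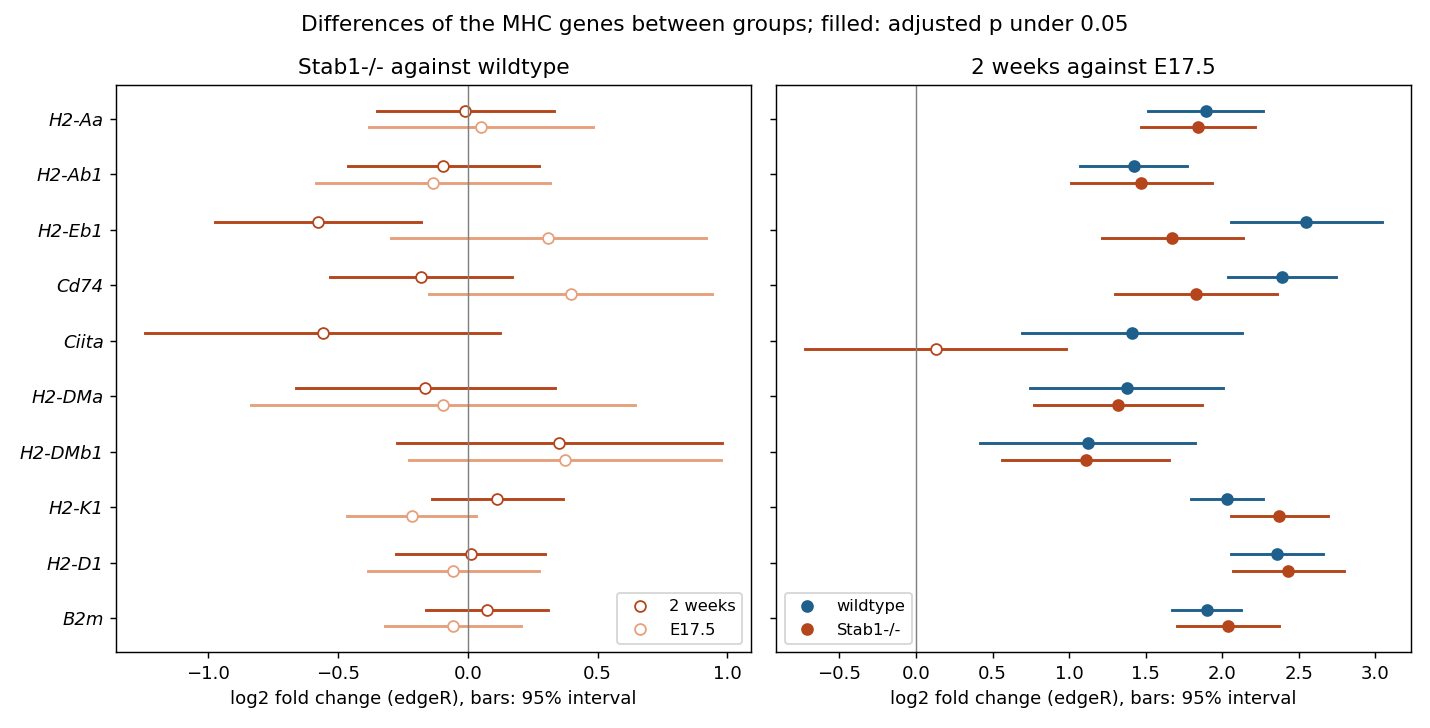
Log2 fold change of each MHC gene on the x axis (edgeR) with its 95% interval, for Stab1-/- against wildtype at each age on the left and for 2 weeks against E17.5 in each genotype on the right. Filled points passed an adjusted p of 0.05. No point on the left is filled, and 19 of the 20 on the right are, the exception being Ciita in Stab1-/- liver.

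Among the class II genes, H2-Eb1 and Cd74 rose most in wildtype liver. H2-Eb1 rose from 1.602 ± 0.448 to 7.35 ± 1.58 RPKM (log2 fold change 2.55 ± 0.23, edgeR adjusted p = 6.5e-07), and Cd74 rose from 6.45 ± 1.27 to 26.4 ± 3.28 RPKM (2.39 ± 0.16, adjusted p = 5.5e-08). In Stab1-/- liver the same genes rose by 1.67 ± 0.21 and 1.83 ± 0.24 on the log2 scale (edgeR adjusted p = 2.5e-05 and 4.0e-05). H2-Aa rose by 1.89 ± 0.17 in wildtype and 1.84 ± 0.17 in Stab1-/- liver, and H2-Ab1 by 1.42 ± 0.16 and 1.47 ± 0.21.

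H2-Ab1 was at 5.61, 5.05, 5.96 and 3.60 RPKM in wildtype and 4.70, 4.33 and 4.27 RPKM in Stab1-/- samples at E17.5, below every 2-week value given above. H2-DMa rose from 1.29, 1.96, 2.20 and 1.07 RPKM to 2.82, 2.86, 4.997 and 2.49 RPKM in wildtype liver. In Stab1-/- liver it rose from 2.12, 1.21 and 1.08 to 3.55, 3.42, 2.87 and 2.73 RPKM. The peptide editor acts after the chains are made. The log2 fold changes of H2-DMa were 1.38 ± 0.29 in wildtype and 1.32 ± 0.25 in Stab1-/- liver (edgeR adjusted p = 0.00096 and 0.00060).

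H2-DMb1 had the weakest change among the called class II genes. It was at 0.867, 0.968, 1.06 and 0.727 RPKM at E17.5 and at 2.45, 1.02, 1.76 and 0.948 RPKM at 2 weeks in wildtype liver, so that 2 of the 2-week libraries lay within the fetal range. In Stab1-/- liver it was at 1.18, 0.967 and 1.248 RPKM and then at 2.45, 2.28, 2.01 and 1.68 RPKM, without overlap. The edgeR log2 fold changes were 1.12 ± 0.32 in wildtype (adjusted p = 0.00763) and 1.11 ± 0.25 in Stab1-/- liver (adjusted p = 0.00188). With library totals the wildtype call was lost (log2 fold change 0.76, adjusted p = 0.0532), as it was with limma on log2 RPKM.

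Ciita differed between the genotypes in whether its rise was called. In wildtype samples at E17.5 it was at 0.0693, 0.161, 0.170 and 0.0698 RPKM, all below the 2-week wildtype libraries, and the log2 fold change was 1.41 ± 0.33 (edgeR adjusted p = 0.00205). In Stab1-/- samples at E17.5 it was at 0.230, 0.196 and 0.141 RPKM, within the range at 2 weeks, and the log2 fold change was 0.13 ± 0.39 (edgeR adjusted p = 0.778). The interaction of genotype and age for Ciita was -1.26 ± 0.52, with an unadjusted p of 0.026 and an adjusted p of 0.160 by edgeR, and so was not called.

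The class I genes rose with age in both genotypes. H2-K1 rose by 2.03 ± 0.11 in wildtype and 2.37 ± 0.14 in Stab1-/- liver on the log2 scale (edgeR adjusted p = 6.4e-09 and 7.8e-08). H2-D1 was at 36.0, 43.8, 47.4 and 31.3 RPKM in wildtype and 36.2, 39.9 and 33.6 RPKM in Stab1-/- samples at E17.5, and rose by 2.36 ± 0.14 and 2.43 ± 0.16. B2m rose by 1.90 ± 0.10 and 2.04 ± 0.15. For these 3 genes every 2-week library lay far above every fetal library. The fitted folds include TMM scaling, and at 4.09 for H2-K1 and 3.73 for B2m in wildtype liver they are larger than the ratios of mean RPKM, 3.19 and 2.91.

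No member passed the test of a different age change between genotypes, where 1.81% of 13885 genes did, 0.799% higher and 1.01% lower (edgeR). An unadjusted p under 0.05 was found for 3 of the 10, against 23.2% of all genes tested, and DESeq2 called 0. Beside Ciita these were H2-Eb1, with an edgeR interaction of -0.85 ± 0.32 (adjusted p = 0.135 over all genes), and H2-K1, with 0.36 ± 0.17 (edgeR adjusted p = 0.205). For H2-Eb1 the ratio to its class II neighbour H2-Ab1 was 0.513 ± 0.110 in Stab1-/- and 0.692 ± 0.118 in wildtype liver at 2 weeks, and 0.430 ± 0.0686 and 0.317 ± 0.0559 at E17.5. Its range overlapped between genotypes at 2 weeks, from 0.417 to 0.653 and from 0.585 to 0.816. At E17.5 it did not overlap, from 0.384 to 0.509 in Stab1-/- and from 0.238 to 0.367 in wildtype samples. This ratio has no test, and 12.2% of all genes tested at E17.5 had no overlap in RPKM.

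Ratios between the class I chains were compared over age, as a description without a test. The ratio of summed H2-K1 and H2-D1 to B2m in RPKM was 0.370 ± 0.00875 in wildtype liver at 2 weeks and 0.314 ± 0.0156 at E17.5, without overlap. The same ratio in Stab1-/- liver was 0.371 ± 0.0248 and 0.296 ± 0.0530, where 1 fetal library reached into the 2-week range. H2-D1 was at 0.476 ± 0.0333 of H2-K1 in 2-week-old wildtype liver and 0.378 ± 0.0326 at E17.5, without overlap, and at 0.442 ± 0.0304 and 0.426 ± 0.0332 in Stab1-/- liver, where the ages overlapped. Summed over 26 heavy chain rows, class I reads were 775 ± 57.4 RPM in wildtype and 663 ± 20.2 RPM in Stab1-/- samples at E17.5, below the 2-week sums given above. H2-Q10 held 44.9 ± 1.01% of them in wildtype samples at E17.5.

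Most genes that supply class I molecules with peptides rose as well. Of 14 genes of class I transcription and peptide loading, 11 rose and 0 fell in wildtype liver, and 10 rose and 0 fell in Stab1-/- liver (edgeR). Over all genes tested, 34.9% were called higher and 37.0% lower in wildtype, and 35.7% and 36.8% in Stab1-/- liver. Psmb8, a subunit of the immunoproteasome, rose from 11.3 ± 2.82 to 28.1 ± 2.09 RPKM in wildtype liver (log2 fold change 1.66 ± 0.15, adjusted p = 9.2e-07 by edgeR). Erap1, which trims peptides, rose by 1.09 ± 0.11, and Tap2, a chain of the peptide transporter, by 1.18 ± 0.15. Psmb9, another immunoproteasome subunit, rose by 1.94 ± 0.17 in Stab1-/- liver. Nlrc5, the class I transactivator, was named after its values were seen, and rose from 0.553 to 2.61 RPKM in wildtype and from 0.489 to 2.80 RPKM in Stab1-/- liver, by 2.59 and 2.74 on the log2 scale. With library totals the list counts were 8 higher and 2 lower in wildtype and 9 higher and 3 lower in Stab1-/- liver, with Tapbpl, Psme1 and Psme2 losing their call in wildtype.

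**Figure D3:**
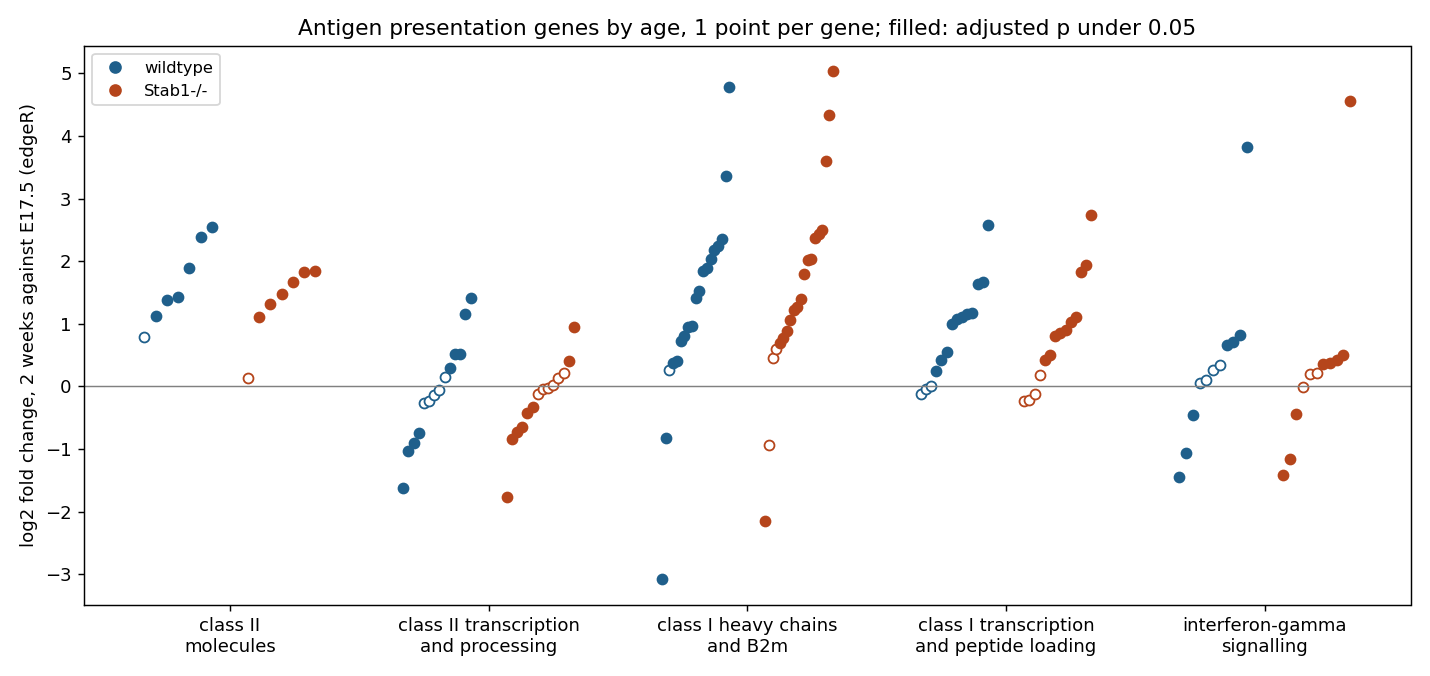
Log2 fold change between 2 weeks and E17.5 on the y axis (edgeR), with 1 point per gene tested, for 5 lists of antigen presentation genes on the x axis, in wildtype and Stab1-/- liver. Filled points passed an adjusted p of 0.05. In the class I transcription and peptide loading list 11 of 14 wildtype points are filled above 0, where 34.9% of all genes tested were called higher. The class II transcription and processing list has filled points on both sides.

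Among class I heavy chains and B2m, 16 of 19 rose and 2 fell in wildtype liver, and 16 of 20 rose and 1 fell in Stab1-/- liver. The shares of all genes tested were 34.9% higher and 37.0% lower in wildtype, and 35.7% and 36.8% in Stab1-/- liver. Cd1d1, which presents lipids to NKT cells, rose from 5.97 ± 0.671 to 48.2 ± 5.86 RPKM in wildtype liver. H2-T23, which encodes the Qa-1 molecule recognised by NK cells, rose by 2.19 ± 0.10, and H2-T22, a ligand of gamma delta T cells, by 2.24 ± 0.11. H2-T24 fell in both genotypes, from 19.5 ± 2.85 to 1.79 ± 0.407 RPKM in wildtype and from 14.9 ± 3.29 to 2.89 ± 0.633 RPKM in Stab1-/- liver. Gm11127 was the other wildtype gene that fell, from 1.48 to 0.648 RPKM (edgeR adjusted p = 0.0356). Its call was lost when wildtype 2-week replicate 3 or 4 or E17.5 replicate 2 or 4 was left out. The edgeR adjusted p then reached up to 0.112. The call was also lost with DESeq2 (adjusted p = 0.0925), without the filter on low counts and in a fit to all 15 libraries. A block on replicate numbers ended it too, while the other scalings and limma kept it. With library totals 12 rose and 2 fell in wildtype liver. Class I genes have near-identical copies, and only uniquely mapped reads were counted, so the split of reads among H2-K1, H2-D1, H2-Q and H2-T genes is uncertain.

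Of 7 class II molecules tested, 6 rose in each genotype and 0 fell, with H2-Ob, a chain of the H2-DM inhibitor, uncalled at 0.638 RPKM at 2 weeks and 0.472 RPKM at E17.5 in wildtype liver. H2-Eb2 was at 0 in every E17.5 library. Of 14 genes of class II transcription and processing, 5 rose and 4 fell in wildtype liver, and 2 rose and 6 fell in Stab1-/- liver, shares that in wildtype liver are near those of all genes tested (34.9% higher and 37.0% lower). Ctsl, a protease of the endosome, rose from 212 ± 2.45 to 366.4 ± 52.8 RPKM in wildtype liver, and Rfxank, a subunit of the X box factor RFX, from 3.03 ± 0.106 to 3.38 ± 0.139 RPKM, a call lost with library totals. Nfya, a subunit of the Y box factor NF-Y, fell from 17.4 ± 1.601 to 4.40 ± 0.324 RPKM in wildtype liver (log2 fold change -1.62 ± 0.10, edgeR adjusted p = 2.2e-08), and March8, a ligase that removes class II from the surface, fell by 1.03 ± 0.08. Creb1, an X box factor, fell by 0.91 ± 0.10. In the interferon-gamma list 4 of 11 rose and 3 fell in wildtype liver, and 5 of 11 rose and 3 fell in Stab1-/- liver. In wildtype liver these counts too were near or below the shares of all genes tested. Of all genes tested in Stab1-/- liver, 35.7% were called higher and 36.8% lower. Cxcl9, a chemokine that answers to interferon-gamma, rose from 0.192 ± 0.111 to 2.18 ± 0.545 RPKM in wildtype liver, and Ifng itself had too few reads to test. With library totals the class II molecules had 5 higher in wildtype and 6 in Stab1-/- liver, the transcription and processing genes 2 higher and 8 lower and 1 higher and 7 lower, and the interferon-gamma genes 3 higher and 4 lower and 1 higher and 4 lower.

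Cell markers moved with age in several directions. Fetal liver is a site of blood formation, and 6 of 6 erythroid markers, 9 of 9 monocyte and neutrophil markers and 6 of 6 B cell precursor markers tested fell between E17.5 and 2 weeks in each genotype. Beside these and the counts below, 37.0% of all genes tested were called lower and 34.9% higher in wildtype liver. In Stab1-/- liver the shares were 36.8% and 35.7%. Of 7 B cell markers tested, 4 fell in wildtype liver, among them Cd79b, a chain of the B cell receptor complex, from 11.2 ± 1.42 to 3.90 ± 0.860 RPKM, and 1 rose, Ms4a1 from 0.431 ± 0.0609 to 1.28 ± 0.202 RPKM. The summed B cell marker level was 28.3 to 35.2 RPKM at E17.5 and 10.04 to 15.6 RPKM at 2 weeks in wildtype liver. The summed dendritic cell marker level was 7.99 to 10.5 and 6.50 to 7.501 RPKM, with 3 of 7 genes called lower and Batf3 called higher. The share of dendritic cell markers called lower was near that of all genes tested. Kupffer cell and macrophage markers summed to 503 to 617 RPKM at E17.5 and 419 to 593 RPKM at 2 weeks in wildtype liver, with Clec4f and Vsig4 called higher and Csf1r and Emr1 lower. Hepatocyte markers rose in 6 of 6 genes, endothelial markers in 4 of 6 with 1 lower, and T and NK cell markers in 1 of 5. The summed endothelial marker level in wildtype liver was 88.2 to 97.8 RPKM at E17.5 and 118 to 144 RPKM at 2 weeks, without overlap. The part of any of these cell types in the rise of class II was not tested.

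Sex cannot be told apart from age in wildtype liver, since every wildtype E17.5 library had Y-linked reads. Stab1-/- E17.5 replicate 3 had 13 Y-linked reads and 22419 reads of Xist. In this library, as in the other Stab1-/- E17.5 libraries, 9 of the 10 genes were below every 2-week Stab1-/- library. Of all genes tested, 28.0% lay below every 2-week library in every Stab1-/- E17.5 library. The part of sex in the age differences was not tested.

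The coverage of a gene model, the percent of its bases covered by reads, was used to look for differences in the MHC haplotype between genotypes, since reads from a divergent allele can fail to map. Coverage overlapped between genotypes for all 10 genes at 2 weeks and for 9 of 10 at E17.5, where H2-DMb1 was covered to 39.1 to 45.6% in Stab1-/- and 29.5 to 37.9% in wildtype samples, with medians of 36.8 to 44.4% and 30.0 to 41.1% over genes of like depth. Over all genes tested, coverage did not overlap between genotypes for 5.91% at 2 weeks and 9.05% at E17.5. H2-D1 was covered to 80.4 to 80.9% in Stab1-/- and 80.4 to 80.7% in wildtype liver at 2 weeks, although genes of like depth, chosen for similar reads per kilobase in the same library, had medians of 97.6 to 98.1%. It was at 76.9 to 80.2% over the E17.5 libraries. No library of either genotype had unique reads over more than 80.9% of the H2-D1 model.

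H2-Eb1 and H2-DMa were also below genes of like depth at 2 weeks. H2-Eb1 was covered to 58.4 to 70.6% in Stab1-/- and 66.5 to 69.0% in wildtype liver at 2 weeks, against medians of 79.1 to 87.1% and 86.9 to 91.6% over genes of like depth. H2-DMa was covered to 53.7 to 62.9% in Stab1-/- and 54.7 to 68.8% in wildtype liver, against 63.9 to 74.6% and 66.0 to 83.3%. H2-K1 was covered to 94.8 to 97.9% and B2m to 99.0 to 99.8% at 2 weeks, close to genes of like depth. H2-Aa and H2-Ab1 reached 93.7 to 99.2% and 92.5 to 95.8%. The RPKM of H2-D1 and H2-Eb1 divides by the whole model and so gives a lower level than the covered part alone. Haplotypes themselves were not typed here, and equal coverage does not show equal haplotypes.

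**Figure D4:**
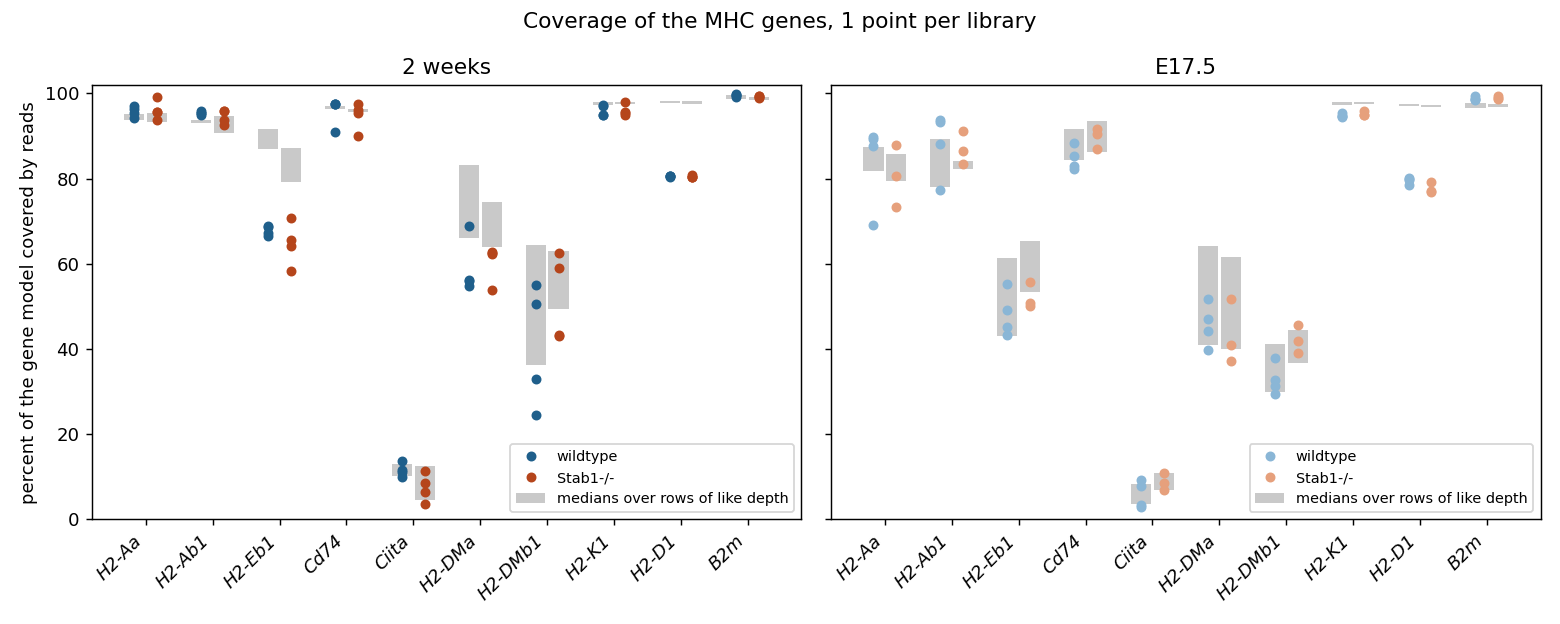
Percent of each gene model covered by reads on the y axis for the 10 MHC genes, at 2 weeks on the left and E17.5 on the right, with 1 point per library. Grey bars span the medians over genes of like depth. At 2 weeks H2-D1 lies between 80.4 and 80.9% in both genotypes, below its grey bars, and H2-Eb1 lies below its bars.

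The spread of the members within groups was compared as well. Over the 15 libraries, each taken relative to its group mean on the log2(RPKM + 0.1) scale, the correlation of a gene with the mean of the other chains was 0.70 for H2-Eb1, 0.69 for Cd74, 0.62 for H2-Ab1 and 0.43 for H2-Aa. Against the mean of the 4 class II genes it was 0.59 for H2-DMa, 0.07 for H2-DMb1 and 0.05 for Ciita, and for class I genes 0.62 for H2-D1, 0.59 for H2-K1 and 0.18 for B2m. For the class I genes it was 0.86 for H2-D1, 0.80 for H2-K1 and 0.64 for B2m, and H2-Ab1 followed the class I mean at 0.73. Among 12034 genes with a mean of at least 1 RPKM, those most like the class II mean were Rpl18 (0.85), Mif (0.83), Sh3bgrl3 (0.83), Psme1 (0.83), Lmo4 (0.82), Rps28 (0.80), Btg1 (0.80) and Dad1 (0.80). Those most like the class I mean were Bst2 (0.85), Gm1821 (0.85), 0610040B10Rik (0.81), C1qa (0.80), Igsf11 (0.80), Lpl (0.80), Elovl5 (0.79) and Rdh7 (0.78). These are descriptions over 15 points that share library depth and composition.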

How the data were processed

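Liver RNA of 15 libraries was sequenced, and the authors deposited 1 table with 3 columns per library. Its counts are uniquely mapped reads per gene, its RPKM values were recomputed from these counts and the gene lengths, and its coverage values, as deposited, are the percent of a gene model covered by reads. Aligner, build and strand setting are not given in the sources used here. Samples were grouped by genotype and age from the labels. Counts were fitted with edgeR 4.0.16 (TMM, filterByExpr with a minimum of 10 reads, quasi-likelihood F test) in R 4.3.3 over all genes of the groups compared, with Benjamini-Hochberg adjustment over all genes and a threshold of 0.05, and the interaction over all 15 libraries. The alternatives used DESeq2 1.42.0, limma 3.58.1 on log2(RPKM + 0.1) or log2(RPKM + 1), other scalings and filters, GC offsets, a replicate block and libraries left out. On simulated data with 200 changed genes at 2 weeks (log2 change 2), 200 were recovered, with 15 false calls. The changed genes were drawn from those with higher read counts. Recovery of smaller changes, or of genes with few reads, was not tested. The 10 genes, the lists and the tests were chosen with earlier results of these data known. All 10 genes and Stab1 are named, and of each list the 3 called genes with the smallest p in each direction or, with none called, the 2 most abundant, except 1 gene that is not reported here. Genes of like depth for the coverage comparison had 0.8 times or more of a member's reads per kilobase, up to the reciprocal of that. No replicate pair agreed within sampling noise (smallest chi-square per degree of freedom 5.41). Intervals cover 95%.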

Additional observations from a re-analysis of the deposited data

Results flagged for a closer look

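Among the 10 genes in the 3 groups of 4 libraries, 2 of 30 sets of values had a library far from the others, where chance gives about 1.5. H2-Aa was 5.561 RPKM in wildtype E17.5 replicate 2, with the nearest library at 4.29 RPKM. H2-DMa was 4.997 RPKM in wildtype 2-week replicate 3, with the nearest library at 2.86 RPKM.

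The genotype difference changed with age for 6 genes named here, none of them an MHC member, by the edgeR interaction test. With single libraries left out, the call was lost in 7 of 15 fits for Stab1, 13 for Lgmn, 4 for Kdr, 8 for S100a8, 9 for S100a9 and 8 for Camp, and over 11 other settings in 2, 8, 1, 0, 0 and 2, with no change of direction. For Stab1 the difference at 2 weeks minus that at E17.5 was -1.24 on the log2 scale (adjusted p = 0.0310). For Lgmn it was -0.71 (edgeR adjusted p = 0.0453), and -0.59 (adjusted p = 0.0632) with library totals. For Kdr, an endothelial receptor, it was -0.68 (edgeR adjusted p = 0.0270). For the neutrophil genes S100a8, S100a9 and Camp it was 2.55, 2.46 and 1.80 (edgeR adjusted p = 0.0347, 0.0437 and 0.0381).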

How the results depend on the processing

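Over 1016 comparisons of a member with another setting or a library left out, 1011 kept the call or its absence, and none of the called changes turned direction. H2-DMb1 by age in wildtype liver lost its call with library totals (log2 fold change 0.76) and with limma on log2(RPKM + 0.1) (0.62), with the same on genes of at least 1 RPKM (0.62) and on log2(RPKM + 1) (0.38). The cause was not tested. The replicate block called 1 member lower at 2 weeks, H2-Eb1 (-0.57, edgeR adjusted p = 0.0367), and ended the E17.5 call of Lgmn (adjusted p = 0.104, and 0.0977 with GC offsets as well). The sources used here do not say that replicate numbers pair animals. The correlation of same-numbered libraries ranged from 0.0219 to 0.202 at 2 weeks, with a mean of 0.139 beside -0.0468 for other pairs. At E17.5 it ranged from -0.181 to -0.000483, with a mean of -0.103 beside 0.0333 for other pairs. At these ages 5 of 8 and 0 of 6 libraries correlated best with their own number. Counts over all genes moved more, in the order higher and lower. At 2 weeks they were 420 and 441 with DESeq2, 642 and 539 with the block, 316 and 387 with all 15 libraries, 316 and 348 with GC offsets and the block, 197 higher without the filter, and 118 lower with library totals, where the split of 119 to 221 became 137 to 118. Limma called 99, 109 and 84 lower (pseudocount 0.1, 1, and at least 1 RPKM). At E17.5 they were 130 and 105 with DESeq2, 10 and 13 with the block, 12 higher with GC offsets and the block, 13 higher with limma at 1 RPKM, and 46 and 43 lower with limma at pseudocounts of 0.1 and 1. With library totals the split of 26 to 23 became 22 to 32. By age in wildtype liver 3104 were higher with library totals (6834 lower), and 3093, 3105 and 2860 with limma. In Stab1-/- liver library totals gave 3758 higher and 5944 lower. For the interaction they were 439 and 619 with DESeq2, 345 and 246 with the block, 209 and 83 with library totals, 225 and 66, 356 and 84, and 245 and 73 with limma, and 180 higher with GC offsets and the block. With 1 library left out, 41 to 294 were higher and 75 to 354 lower at 2 weeks, 15 to 23 and 12 to 24 at E17.5, 4473 to 4759 and 4744 to 4863 by age in wildtype liver, 4481 to 4733 and 4689 to 4962 in Stab1-/- liver, and 5 to 373 and 21 to 311 for the interaction. Members called did not change in number (0, 0, 10, 9 and 0). Ciita at E17.5 and 3 markers without a main test have no alternatives. Ciita, with 4 to 16 reads, is limited by depth.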

Other observations

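H2-Q7, a class I gene chosen after its values were seen, was present on 2 rows with lengths of 1134 and 1536 bases, and 13 libraries had reads on 1 of them, 2 on neither and 0 on both. Over the table, 113 gene identifiers stood on more than 1 row, and in none of the 1184 pairs of such a gene and a library with reads did more than 1 row have reads. The summed RPKM of H2-K1 and H2-D1 was 16.0 ± 2.00 times that of H2-Aa, H2-Ab1 and H2-Eb1 in 2-week-old wildtype and 18.7 ± 2.55 times in Stab1-/- liver. At E17.5 this was 12.8 ± 0.838 and 11.3 ± 0.340, with no test. The genotypes did not overlap but lay close, from 11.63 to 13.42 and from 10.91 to 11.57. Of all genes tested at E17.5, 12.2% had no overlap in RPKM between genotypes.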
